A study of Mus musculus with 5 samples.

Results

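The unfolded protein response and the integrated stress response were followed through 10 genes in the mouse inguinal fat pad (iWAT), which lies under the skin. The genes were taken by name from the deposited tables: Hspa5, Dnajb9, Herpud1, Xbp1, Atf4, Atf3, Ddit3, Trib3, Asns and Chac1. They occupied 11 of the 53700 gene IDs of the first table, because Ddit3 has 2. The rule that takes them uses names and no measured value, but the names were chosen with earlier results of these data known.

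Endoplasmic reticulum (ER) stress is sensed by IRE1, PERK and ATF6. IRE1 splices the Xbp1 transcript into an active form, PERK phosphorylates the translation factor eIF2α, and cleaved ATF6 moves to the nucleus, where it raises chaperone genes. PERK shares eIF2α with the kinases GCN2, PKR and HRI, which answer to amino acid shortage, double-stranded RNA and haem shortage or mitochondrial stress, and this wider programme is the integrated stress response. Phosphorylated eIF2α lowers general translation while favouring translation of ATF4, which then induces genes of amino acid supply and the factor CHOP. Adipocytes secrete large amounts of protein such as adiponectin, and ER stress in fat has been studied mainly in obesity.

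The series compared floxed mice, which stand for the control genotype, with ATRβKO mice, in which the title places the loss of thyroid hormone receptor β in adipocytes. The first table holds Floxed (Veh), given PBS (the vehicle), Floxed (T3), given the active thyroid hormone triiodothyronine, and ATRβKO (T3). Injections were daily for 7 days on normal food, iWAT was taken 24 hours after the last, and the fat of 3 mice was pooled for each of these 3 libraries. Floxed (HFD), from the second table, came from floxed mice fed a high-fat diet for 2 to 3 months, and the labels do not say whether mice were pooled. Strain, age and the Cre driver are not given in the sources used here.

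Each group was 1 library, so no spread between samples and no test was available, and a difference is given as a size only. Values are treated as FPKM, a unit inferred here because no label names it. FPKM are fragments scaled to transcript length and library total, so on that reading levels can be set beside each other between genes. A gene was called higher or lower where FPKM, each with 1 added, stood 2-fold or more apart (1 on the log2 scale) and the higher library had at least 1 FPKM. The steps between low values of single-exon genes put the depth at about 13000000 to 17000000 fragments for each library of the first table and 23200000 to 25800000 fragments for Floxed (HFD). Only a preset range of depths was searched. Classes of gene length gave different estimates, 13000000 and 17000000 in ATRβKO (T3), so these depths and the fragment counts based on them are rough. Thrb encodes the targeted receptor. Its level was 4.44 FPKM in Floxed (Veh), 4.43 in Floxed (T3), 4.26 in ATRβKO (T3) and 4.38 in Floxed (HFD), which does not check the genotype label, so ATRβKO (T3) is named by its label throughout. The library labelled ATRβKO (HFD) was left out: its FPKM sum to 1891065 against 757606 in Floxed (HFD), and 79.6% of 17711 genes stood 2-fold apart between both.

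The fat identity of the tissue was evident in all 4 libraries, in which the 10 adipocyte markers summed to between 20478 and 34794 FPKM. Cells other than adipocytes contributed unequally. The 10 skeletal muscle markers summed to 2725 FPKM in Floxed (Veh), 602 in Floxed (T3), 2661 in ATRβKO (T3) and 12181 in Floxed (HFD). The 8 B cell markers, with none at 0, summed to 408, 242, 353 and 2.81 FPKM in the same order. In bulk tissue, fewer cells of a type and less RNA per cell cannot be told apart.

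Upstream of the start sites, some of these genes carry the DNA elements through which the stress factors are known to act, and the stretches that hold an element before the start are shown so that each gene can be set beside the factors known to act on it. Sequences are from RefSeq on GRCm38.p6, a build other than the GRCm39 of the deposited values, read 5′ to 3′ on the strand of the gene, with the element in capitals. All 10 genes had 1 window each, of 250 bases before to 50 after the start annotated in RefSeq, and the background was 32851 such windows searched on both strands.
Hspa5, chr2:34772000-34772068, + strand: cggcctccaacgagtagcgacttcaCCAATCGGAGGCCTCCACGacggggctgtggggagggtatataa
Herpud1, chr8:94386292-94386412, + strand: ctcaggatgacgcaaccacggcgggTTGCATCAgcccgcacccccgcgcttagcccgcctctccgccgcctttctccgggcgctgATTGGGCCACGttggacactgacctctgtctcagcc
Atf3, chr1:191183411-191183468, - strand: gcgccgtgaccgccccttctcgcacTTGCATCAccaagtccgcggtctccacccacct
Chac1, chr2:119351024-119351081, + strand: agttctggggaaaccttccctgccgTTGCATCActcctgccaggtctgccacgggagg
Asns, chr6:7693210-7693257, - strand: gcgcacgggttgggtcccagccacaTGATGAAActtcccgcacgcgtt

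The ER stress response element bound by ATF6, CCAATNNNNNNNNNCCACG, lay in the Hspa5 window and in 0.119% of all windows. Its shorter second form, ATTGG and CCACG with 1 base of any kind between, lay in the Herpud1 window and in 0.0365% of all. The C/EBP-ATF response element through which ATF4 acts, TGATGNAA, lay in 5 of 10 windows (Asns, Atf3, Chac1, Herpud1 and Trib3) and in 3.97% of all; in 4 of these 5 it was on the strand opposite to the gene, and in Trib3 it began 14 bases after the start. The unfolded protein response element TGACGTGG was in none of the 10 windows and in 0.676% of all. No 2 of these elements overlapped in a window. A match describes letters and shows no binding.

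None of the 10 genes passed the 2-fold rule in any of the 3 comparisons within the first table. With T3 in floxed mice, 0 were higher and 0 lower, where the background was 2.30% of 15031 genes higher and 3.98% lower. Between ATRβKO (T3) and Floxed (T3), 0 were higher and 0 lower, against 4.04% and 2.02% of 14988 genes. Between ATRβKO (T3) and Floxed (Veh), 0 were higher and 0 lower, against 1.83% and 1.79% of 15175 genes. A count of 0 of 10 lies near these backgrounds, so it says nothing particular of these genes. At a looser 1.5-fold rule, in either direction, 1 of 10 passed with T3 (Herpud1) where 19.2% of all genes did, 2 between the T3 libraries (Herpud1 and Chac1) where 18.4% did, and 0 between ATRβKO (T3) and Floxed (Veh) where 8.65% did. Gene spans given with each gene are those of GENCODE M21 on GRCm38. For Hspa5, Atf3 and Asns they reach farther upstream than the RefSeq start, so the stretches shown above lie wholly or in part inside them.

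**Figure D1:**
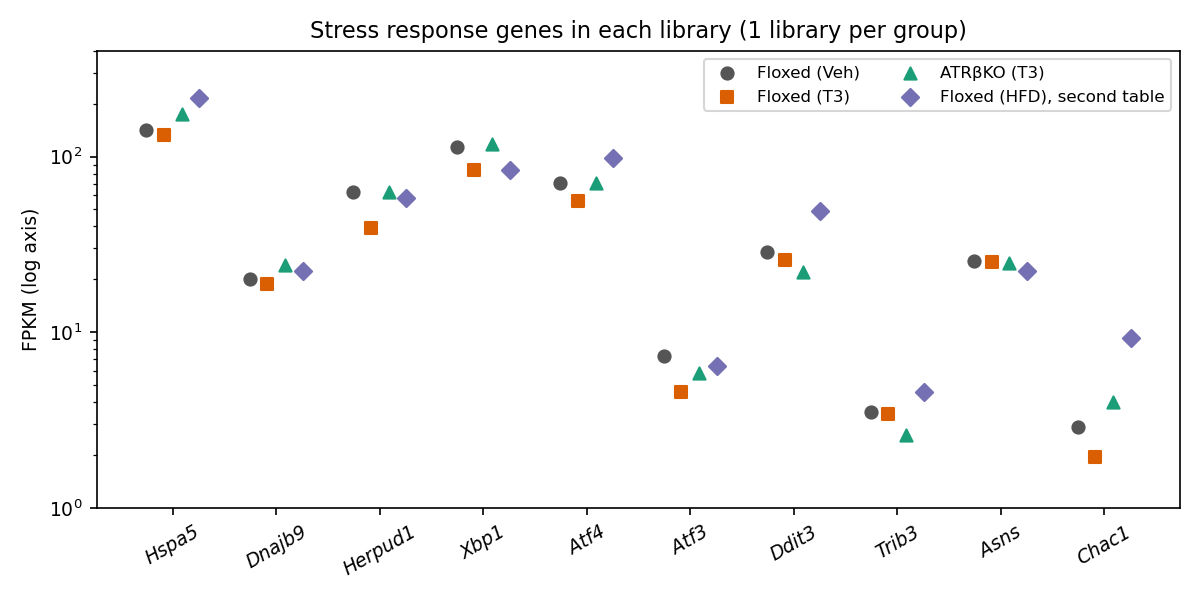
FPKM on a log axis of the 10 genes in Floxed (Veh), Floxed (T3), ATRβKO (T3) and Floxed (HFD), 1 point per library, with no error bars because each group is 1 library and with only the longer gene ID of Ddit3. Levels run from 1.96 FPKM for Chac1 to 215 FPKM for Hspa5. Within the first table the highest and lowest points of a gene lie from 1.02-fold apart for Asns to 2.06-fold for Chac1.

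Hspa5 (ENSMUSG00000026864, chr2:34771970-34777547) encodes BiP, the main Hsp70 chaperone of the ER lumen and the classic readout of ATF6. It was at 142 FPKM in Floxed (Veh), 133 in Floxed (T3) and 174 in ATRβKO (T3), a 1.07-fold difference between the floxed libraries and a 1.31-fold one between both T3 libraries. Hspa5 was the most abundant of the 10 genes in every library, above at least 95.5% of the genes at 1 FPKM or more. In Floxed (HFD) it was at 215 FPKM, a level from a table that may have been normalized separately. Dnajb9 (ENSMUSG00000014905, chr12:44205559-44210326) encodes ERdj4, a J-domain partner of BiP that is induced by spliced XBP1. It was at 20.2 FPKM in Floxed (Veh), 18.7 in Floxed (T3), 24.2 in ATRβKO (T3) and 22.2 in Floxed (HFD). Dnajb9 kept nearly the same proportion to Hspa5 in the first table, with FPKM ratios of 0.142, 0.141 and 0.140.

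Herpud1 (ENSMUSG00000031770, chr8:94386438-94395377) encodes an ER membrane protein that assembles the machinery for degrading misfolded proteins, and its window above carried both kinds of element. It was at 62.8 FPKM in Floxed (Veh), 39.2 in Floxed (T3), 62.7 in ATRβKO (T3) and 57.8 in Floxed (HFD). Floxed (T3) was thus the low library, 1.60-fold below each of the others of the first table. Its log2 ratio of -0.67 with T3 was the farthest from 0 of the 10 genes, and 14.9% of all genes compared lay farther from 0. Relative to Hspa5, Herpud1 stood at 0.442 in Floxed (Veh), 0.296 in Floxed (T3), 0.361 in ATRβKO (T3) and 0.269 in Floxed (HFD).

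Xbp1 (ENSMUSG00000020484, chr11:5520659-5525893) encodes the transcription factor that IRE1 activates by splicing. Gene-level FPKM sum both splice forms, so these values say nothing of the active form. Xbp1 was at 114 FPKM in Floxed (Veh), 83.9 in Floxed (T3), 118 in ATRβKO (T3) and 83.3 in Floxed (HFD). Plasma cells are rich in Xbp1, and their 8 markers summed to 83.9, 56.5, 98.0 and 21.1 FPKM in the same order, with Mzb1 at 0 in Floxed (HFD) and no marker at 0 elsewhere. With T3, 4 of the 8 plasma cell markers had log2 ratios above 0 and 4 below, from -0.82 to 0.54, with a median of -0.20 beside -0.21 for all genes and -0.44 for Xbp1. All 8 B cell markers were below 0 with T3, from -0.86 to -0.53. Between the T3 libraries 6 of the 8 plasma cell markers were above 0, with a median of 0.61, beside 0.49 for Xbp1. Derl3 is a plasma cell marker here and also a gene of the ER-associated degradation list, so these lists are not independent. The part of plasma cells and B cells in the Xbp1 values was not tested.

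Atf4 (ENSMUSG00000042406, chr15:80255184-80257541) encodes the central factor of the integrated stress response, whose protein is set largely by translation, so its mRNA is an incomplete readout. It was at 71.1 FPKM in Floxed (Veh), 56.1 in Floxed (T3), 70.8 in ATRβKO (T3) and 98.4 in Floxed (HFD). Floxed (Veh) and ATRβKO (T3) were nearly equal, and Floxed (T3) was 1.27-fold below Floxed (Veh). Atf3 (ENSMUSG00000026628, chr1:191170296-191218039) encodes a related factor that is induced by ATF4 and also by immediate early signalling. It was at 7.28, 4.59, 5.85 and 6.46 FPKM in the same order, with Floxed (T3) 1.59-fold below Floxed (Veh). Of 15 immediate early genes compared, 0 were called with T3 and their median log2 ratio was -0.42, beside -0.57 for Atf3 and -0.21 for all genes.

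Ddit3 (chr10:127290774-127296288) encodes CHOP, the factor linked to cell death under prolonged stress. The longer gene ID, ENSMUSG00000025408, was at 28.5 FPKM in Floxed (Veh), 25.7 in Floxed (T3), 21.96 in ATRβKO (T3) and 49.1 in Floxed (HFD). It was among 3 genes whose lowest value in the first table was in ATRβKO (T3), the others being Trib3 and Asns. The second ID, ENSMUSG00000116429, was listed at 0 in the 3 libraries of the first table and at 175 FPKM in Floxed (HFD). In GENCODE M21 on GRCm38 that ID is a transcript of 105 bases, all 105 of which lie inside exons of the longer ID, whose longest coding transcript has 890 bases, and the deposited annotation describes its product as a protein of the upstream open reading frame. Reads there cannot be assigned to 1 ID alone, and FPKM divides by a length shorter than a typical fragment, so the 175 FPKM and the split between both IDs are uncertain. In GENCODE M21 the 3′ end of Mars (now Mars1), on the other strand, overlaps that of Ddit3, and no source used here states whether counting used strand.

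Trib3 (ENSMUSG00000032715, chr2:152337422-152344032) encodes a pseudokinase induced by ATF4 and CHOP that restrains Akt signalling. It was at 3.51 FPKM in Floxed (Veh), 3.42 in Floxed (T3), 2.59 in ATRβKO (T3) and 4.59 in Floxed (HFD). These are low levels, of about 68 to 114 fragments in the first table by the estimated depth. Asns (ENSMUSG00000029752, chr6:7675169-7693254) encodes asparagine synthetase, a direct ATF4 target in amino acid shortage. It was at 25.4, 24.98, 24.9 and 22.4 FPKM in the same order. Asns varied least of the 10 genes, with 1.02-fold between its highest and lowest library of the first table.

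Chac1 (ENSMUSG00000027313, chr2:119351229-119354381) encodes a glutathione-degrading enzyme that is among the sharpest responders to ATF4. It was at 2.89 FPKM in Floxed (Veh), 1.96 in Floxed (T3), 4.03 in ATRβKO (T3) and 9.30 in Floxed (HFD). The plain ratio of the T3 libraries was 2.06-fold, the largest of the 10 genes, but the log2 ratio with the pseudocount was 0.77 and missed the rule. At the estimated depth the values rest on about 42 to 53 fragments in Floxed (T3) and 86 to 112 in ATRβKO (T3). Counting error is thus larger than for the more abundant genes, and variation between mice was not measured.

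**Figure D2:**
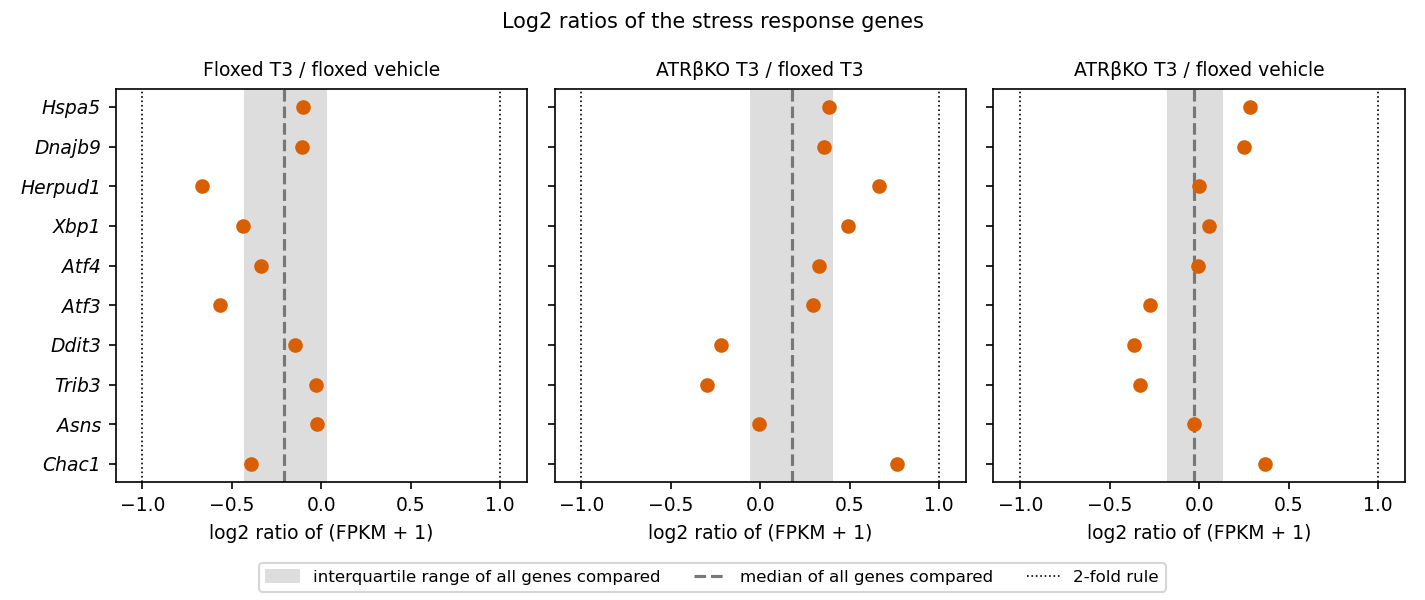
Log2 ratios of FPKM plus 1 for the 10 genes in the 3 comparisons, 1 point per gene, with the interquartile range of all genes compared in grey, their median dashed and the 2-fold rule dotted. No point reaches the dotted lines, and Herpud1 at -0.67 with T3 and Chac1 at 0.77 between the T3 libraries lie farthest out.

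The median of all genes was itself off 0 in the comparisons that involve Floxed (T3), at -0.21 with T3 and 0.18 between the T3 libraries, so the 10 genes are best read against it. With T3, all 10 had log2 ratios below 0, beside 72.6% of all genes below and 27.2% above, with a median of -0.24. Against the all-gene median 5 lay above and 5 below. Rescaling to that median or by trimmed means of M values put Asns, Ddit3, Dnajb9, Hspa5 and Trib3 above 0, and a common total without the 50 most abundant genes put the same genes except Ddit3 above 0. Between the T3 libraries the 10 genes had a median of 0.34, with 7 above 0 under the deposited scaling and 8 at a common total, where Asns changed sign, beside 70.3% of all genes above 0 and 29.4% below. Ddit3 and Trib3 were below 0 in that comparison, at -0.22 and -0.30, under each of the 4 rescalings tried as well. Between ATRβKO (T3) and Floxed (Veh), 4 of 10 were above 0 and 6 below, beside 45.1% and 54.7% of all genes. There the median was -0.0040, the values ran from -0.36 for Ddit3 to 0.37 for Chac1, and Atf4, Herpud1 and Asns changed sign under at least 1 rescaling. These comparisons share libraries, so their values are not independent.

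The order of levels was nearly the same across libraries. From the top it was Hspa5, Xbp1, Atf4, Herpud1, Ddit3, Asns, Dnajb9, Atf3, Trib3 and Chac1 in both Floxed (Veh) and Floxed (T3). In ATRβKO (T3), Ddit3 stood below Asns and Dnajb9, and Chac1 stood above Trib3. In Floxed (HFD), Atf4 stood above Xbp1, and Chac1 stood above both Atf3 and Trib3. With 1 library per group, whether neighbours such as Ddit3 and Asns in Floxed (T3), at 25.7 and 24.98 FPKM, differ beyond sampling cannot be said.

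**Figure D3:**
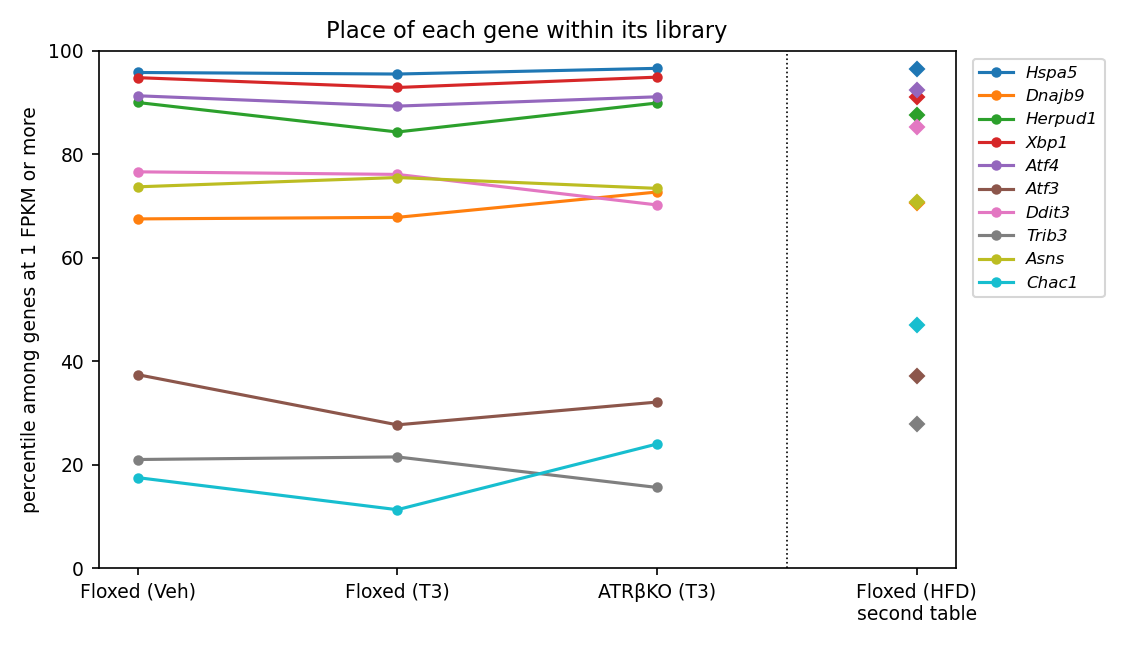
Percentile of each of the 10 genes among genes at 1 FPKM or more of the same library, with the first table joined by lines and Floxed (HFD) apart as diamonds, where Asns covers Dnajb9. Chac1 lies between 11.3 and 24.0 in the first table and at 46.9 in Floxed (HFD), while Hspa5 lies between 95.5 and 96.6 in all 4.

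Because the tables may have been normalized separately, Floxed (HFD) was set beside the first table by rank within its own library, as a description. Chac1 exceeded 17.5% of the genes at 1 FPKM or more in Floxed (Veh) and 46.9% in Floxed (HFD). Ddit3, by its longer ID, exceeded 76.6% and 85.3%, and Trib3 exceeded 27.9% in Floxed (HFD), beside 15.6% to 21.5% over the first table. The other genes lay closer in Floxed (Veh) and Floxed (HFD): Atf4 at 91.3% and 92.5%, Atf3 at 37.4% and 37.1%, Asns at 73.7% and 70.7% and Xbp1 at 94.8% and 91.1%. Libraries of the first table also differed among themselves, with Atf3 at 27.7% in Floxed (T3). Herpud1 stood at 87.6% in Floxed (HFD), beside 90% in Floxed (Veh), 84.3% in Floxed (T3) and 89.9% in ATRβKO (T3). Diet, table and cell makeup, with muscle and B cell markers as given above, cannot be told apart in these ranks.

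Other genes were described through 12 lists. Most lists hold genes of both responses, and those of cytosolic heat shock, mitochondrial chaperones and immediate early genes were added for comparison. The shares below pool all 12. Of 162 such genes compared with T3 in floxed mice, 2 were higher and 1 lower, which is 1.85% beside 6.28% of all genes. Between the T3 libraries it was 3 higher and 1 lower of 164, or 2.44% beside 6.06%, and between ATRβKO (T3) and Floxed (Veh) 1 higher of 164, or 0.610% beside 3.62%. The genes were chosen with earlier results known, so these shares describe the lists and carry no test.

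Among the sensors of stress, 0 of 10 were called in each comparison, with medians of -0.21 and 0.18 for T3 and for the T3 libraries, beside -0.21 and 0.18 for all genes. Ern1, which encodes IRE1, was at 5.84 FPKM in Floxed (Veh), 5.74 in Floxed (T3) and 5.94 in ATRβKO (T3). Atf6, named here after its values were seen, was at 10.3, 10.7 and 10.2 FPKM in the same order. Eif2ak3, which encodes PERK, was at 13.0, 7.76 and 9.15 FPKM, a 1.67-fold difference with T3. The eIF2α kinases, phosphatase subunits and eIF2B had 0 of 15 called in each comparison, and Eif2b2, a subunit of the exchange factor eIF2B, was at 21.5, 33.0 and 32.2 FPKM.

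ER chaperones and folding enzymes had 0 of 20 called in each comparison. Their median log2 ratio with T3 was -0.19, beside -0.21 for all genes. Between the T3 libraries all 20 were above 0 with a median of 0.36, beside 0.18 for all genes, and 17 of 20 lay above that all-gene median. Between ATRβKO (T3) and Floxed (Veh), 17 were above 0 and 3 below, with a median of 0.16 beside -0.03 for all genes. Calr, the lectin chaperone calreticulin, was at 212 FPKM in Floxed (Veh), 190 in Floxed (T3) and 267 in ATRβKO (T3). Sdf2l1, a BiP cofactor, was at 14.2, 10.8 and 17.7 FPKM in the same order. Between the same T3 libraries the fibroblast markers, of cells rich in secreted protein, had 4 of 11 higher and 0 lower with a median of 0.89 and sums of 1753 and 3512 FPKM, and their part in the chaperone values was not tested. Calr, Canx and Sec61b were nearest to Hspa5 in their pair of log2 ratios to vehicle, within a distance of 0.080 among 151 list genes over 3 libraries.

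ER-associated degradation genes had 0 of 16 called in each comparison, with medians of -0.12 with T3 and 0.23 between the T3 libraries. Os9, a lectin that hands misfolded glycoproteins to the degradation complex, was at 67.9, 48.6 and 71.4 FPKM in Floxed (Veh), Floxed (T3) and ATRβKO (T3). Of 19 genes of ER translocation, 1 was called, Sec61g, a small subunit of the protein-conducting channel. It was 2.32-fold higher in ATRβKO (T3) than in Floxed (T3), at 13.3 against 5.74 FPKM, and fell short of the rule under 4 of 8 alternatives. The floors among these alternatives, here and below, could not change a ratio. Srp54a, Creb3l2 and Syvn1 were nearest to Atf4 in their log2 ratios, within 0.043.

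**Figure D4:**
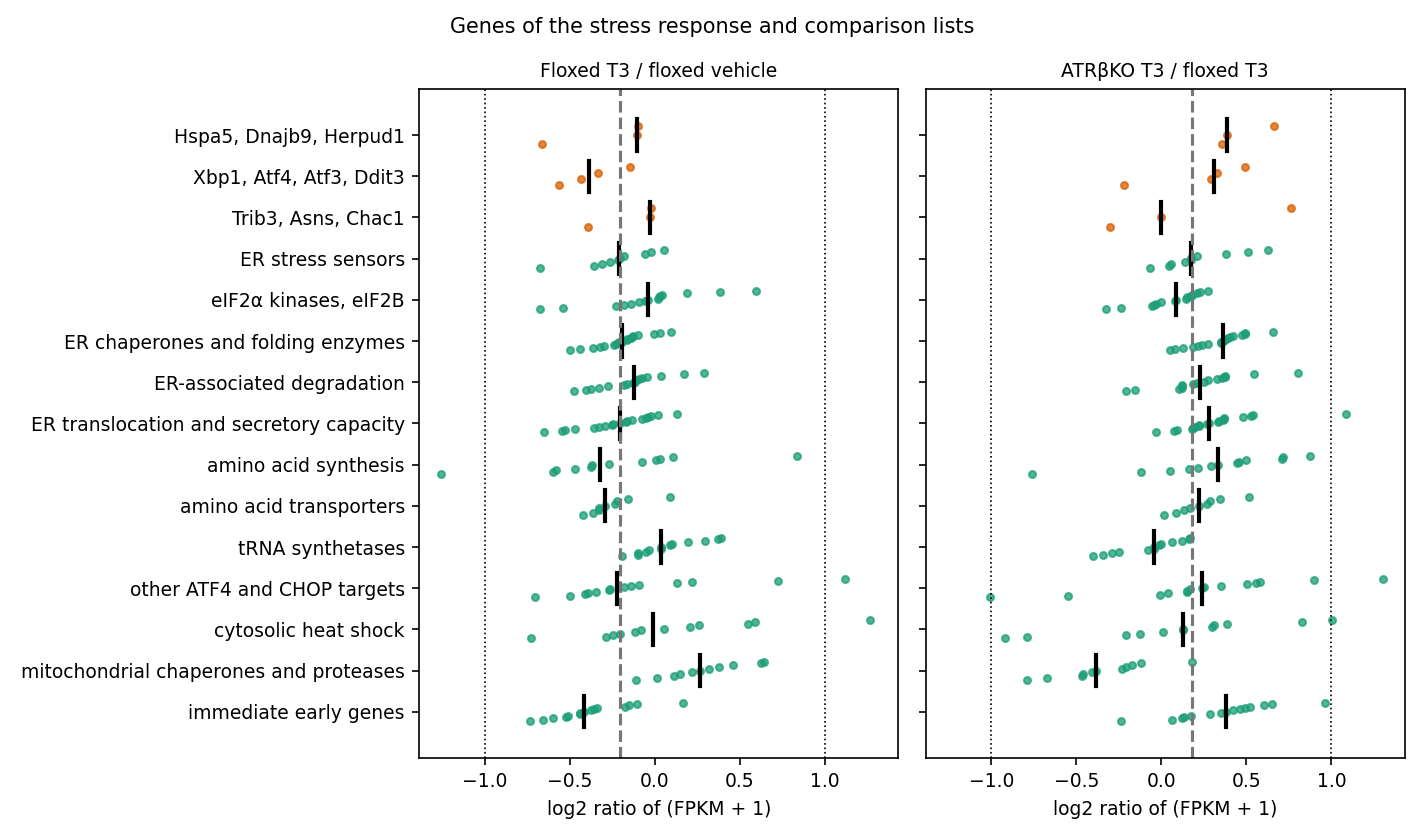
Log2 ratios of FPKM plus 1 for each gene of the lists (dots; orange for the 10 genes, green for others) in Floxed (T3) against Floxed (Veh) and in ATRβKO (T3) against Floxed (T3), with each list's median as a bar, the median of all genes dashed and the 2-fold rule dotted. Mitochondrial chaperones have medians of 0.27 and -0.38, beside all-gene medians of -0.21 and 0.18.

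Amino acid supply is the best known output of ATF4. Of 12 amino acid synthesis genes compared with T3, 1 was lower: Cbs, which makes cystathionine, at 0.84 against 3.40 FPKM, a low level, named here after it was seen. Its log2 ratio fell short of the rule under 1 of 8 alternatives, and a floor of 5 FPKM left it uncompared. Phgdh and Psph are the first and last enzymes of serine synthesis. Phgdh was at 77.4, 50.7 and 83.8 FPKM in the 3 libraries of the first table, in the order above, and Psph at 10.3, 19.2 and 10.9. Amino acid transporters had 0 of 9 called in each comparison, with Slc3a2, the shared heavy chain of several of them, at 62.8, 46.5 and 66.9 FPKM.

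The aminoacyl-tRNA synthetases and the tRNA exporter Xpot had 0 of 13 called in each comparison. All 13 lay above the all-gene median with T3 and all 13 below it between the T3 libraries, which share Floxed (T3), with list medians of 0.04 and -0.04. Wars, for tryptophan, was at 22.3, 29.5 and 23.1 FPKM in Floxed (Veh), Floxed (T3) and ATRβKO (T3). Asns had Nars, for asparagine, as its nearest neighbour among the list genes, at a distance of 0.022, followed by Sec23b and Ern1.

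Of 14 other ATF4 and CHOP targets compared with T3, 1 was higher and 0 lower. This was Atf5, a factor translated under eIF2α phosphorylation and tied to the mitochondrial stress response, at 56.4 FPKM in Floxed (Veh), 123 in Floxed (T3) and 60.9 in ATRβKO (T3). In Floxed (HFD), from the second table, Atf5 was at 124 FPKM. It was 2.19-fold higher with T3, and 2.03-fold lower in ATRβKO (T3) than in Floxed (T3). The second call fell short under 2 of 8 alternatives and the first under none, though the floors among them could not change a ratio. Ddit4, an inhibitor of mTORC1, was at 40.2, 30.3 and 76.3 FPKM, 2.52-fold higher in ATRβKO (T3) than in Floxed (T3). Cebpb, a C/EBP factor of adipogenesis and stress, was at 7.38, 12.9 and 18.7 FPKM, 2.53-fold higher in ATRβKO (T3) than in Floxed (Veh), and fell short under 1 of 8 alternatives.

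Chaperones of other compartments were listed for comparison. Mitochondrial chaperones and proteases had 0 of 11 called in each comparison, with a median log2 ratio of 0.27 with T3 and all 11 above the all-gene median of -0.21. Hspd1, the mitochondrial chaperonin, was at 131 FPKM in Floxed (Veh), 205 in Floxed (T3) and 128 in ATRβKO (T3), and Hspa9, the mitochondrial Hsp70, at 156, 241 and 139. The FPKM ratio of Hspa5 to Hspd1 was 1.08, 0.646 and 1.35. Of 12 cytosolic heat shock genes, Cryab was 2.42-fold higher with T3, at 203 against 83.7 FPKM, and Hspa1a was 2.48-fold higher in ATRβKO (T3) than in Floxed (T3), at 5.35 against 2.16. Hspa1a has a near-identical copy in Hspa1b, so its value is uncertain, and its call was lost under 4 of 8 alternatives.

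**Figure D5:**
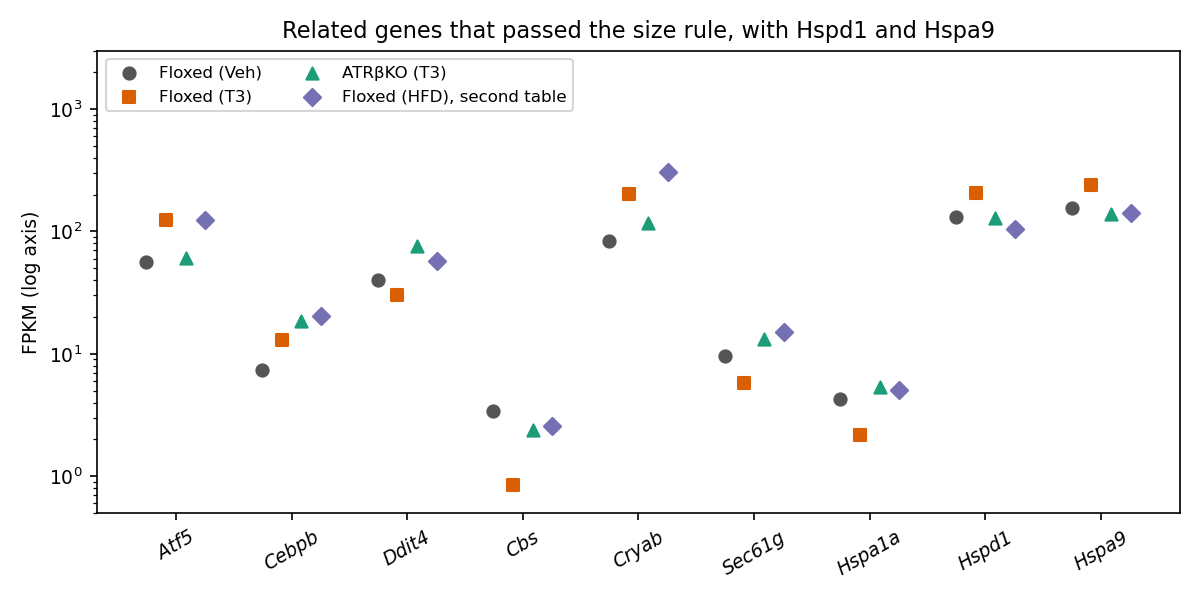
FPKM on a log axis of the related genes that passed the 2-fold rule in at least 1 comparison, with Hspd1 and Hspa9 added, in Floxed (Veh), Floxed (T3), ATRβKO (T3) and Floxed (HFD), 1 point per library and no error bars. Atf5 stands at 123 FPKM in Floxed (T3) against 56.4 and 60.9 FPKM in the other libraries of the first table, and at 124 FPKM in Floxed (HFD).

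Markers of other cell types differed between the same libraries in which these genes were compared. With T3, 9 of 10 skeletal muscle markers and 6 of 8 T cell markers were lower, with medians of -2.18 and -1.18. Also lower were 2 of 11 fibroblast markers (median -0.54), 1 of 11 macrophage markers (median -0.40) and 1 of 10 adipocyte markers, Cfd (median -0.11). No B cell, plasma cell or endothelial marker was called with T3, with medians of -0.77, -0.20 and 0.43. Over all genes 3.98% were lower with T3 and the median was -0.21. Against that median 6 of 10 adipocyte markers lay above and 4 below. Between the T3 libraries 10 of 10 muscle, 4 of 11 fibroblast, 2 of 8 T cell and 1 of 11 macrophage markers were higher, with medians of 2.20, 0.89, 0.79 and 0.81. No adipocyte, B cell, plasma cell or endothelial marker was called there, with medians of 0.01, 0.53, 0.61 and -0.38. Over all genes 4.04% were higher in that comparison and the median was 0.18. Between ATRβKO (T3) and Floxed (Veh), 1 of 8 plasma cell markers was higher, Fkbp11, beside 1.83% of all genes. No marker of the other lists was called there. The 8 mammary epithelium markers summed to between 1.48 and 4.61 FPKM. The part of these cells in the values of the 10 genes was not tested.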

How the data were processed

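RNA was measured by RNA sequencing in iWAT. Per the labels' protocols, TruSeq libraries were read in pairs on a NovaSeq instrument, each from pooled mice for vehicle and T3. HISAT2, StringTie and GRCm39 are named, with no version, per the submitters' processing notes. The authors deposited values treated here as FPKM, a unit inferred from their sums and decimals, since no header or label names it. FPKM depend on the library's total, so abundant genes lower all others.

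From these, log2 ratios of FPKM plus 1 were computed within the first table (Python 3.11.15, pandas 2.3.3). The code was tested on simulated data. An estimate of depth came from the step that 1 fragment makes in 469 to 721 single-exon genes of GENCODE M21 per library and length class. List genes matched by symbol, and 12 of 182 entries by a RefSeq synonym; all 80 marker entries matched by symbol.

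The 10 genes, the lists and the rules were chosen with earlier results of these data known. The genes named were the 10, list genes past the 2-fold rule or else the 2 farthest from 0 at 5 FPKM or more, and the 3 list genes nearest to each of Hspa5, Atf4 and Asns. Atf6, Cbs, Cfd, Derl3, Fkbp11 and Mzb1 were named after their values were seen. Alternatives were other pseudocounts, floors, scalings and size rules. The library labelled ATRβKO (HFD) was not used for results.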

Additional observations from a re-analysis of the deposited data

How the results depend on the processing

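The count of members called was 0 in each comparison under each of the 4 rescalings; the 4-fold rule, the larger pseudocount and the floors tried could not have added a call. At a 1.5-fold rule 1 member (Herpud1) was lower with T3 and 2 (Chac1 and Herpud1) were higher in ATRβKO (T3) than in Floxed (T3), and a pseudocount of 0.1 made 1 (Chac1) higher in the latter comparison, at a log2 ratio of 1.0035. The members' median log2 ratio with T3 moved from -0.24 to -0.0343 when rescaled to the all-gene median, to 0.0018 by trimmed means of M values and to -0.12 at a common total without the 50 most abundant genes. Between the T3 libraries it moved from 0.34 to 0.17, 0.13 and 0.21 under the same settings. For the rescalings to the all-gene median and by trimmed means of M values this is a shift of all genes alike. For the common total without the 50 most abundant genes the pseudocount was added after scaling, so members with low FPKM moved less. No paired analysis was possible because each group holds 1 library. Chac1 and Trib3, at 1.96 to 4.03 FPKM in the first table, are limited most by depth, and variation between mice was not measured.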
